A study of Mus musculus with 8 samples.

Results

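The measurements concern 10 chemokine genes that skeletal muscle and its connective tissue, vessels and resident immune cells can express: Ccl2, Ccl6, Ccl7, Ccl8, Ccl9, Ccl11, Cxcl1, Cxcl12, Cxcl14 and Cx3cl1. Their probes were found by gene name in the array annotation. The list of genes was drawn up with earlier results of these data known, and 10 of 10 had a probe bright enough to enter the comparison of 22272 genes. Soleus muscle came from male C57BL/6J mice aged 14 weeks, and all mice of both groups ate High-fat diet 32. The saline group (n = 4) received physiological saline by feeding needle, and the P. gingivalis group (n = 4) received Porphyromonas gingivalis, a bacterium of human gum disease, suspended in 100 µL of the same saline, over 6 weeks. The number of bacterial cells is not stated in the labels, and no group without the high-fat diet was analysed here. Total RNA was labelled with Cy3, and each sample was hybridised to 1 single-colour Agilent array.

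Chemokines are small secreted proteins that guide migrating cells through G protein-coupled receptors. They are held on vessel walls and in the matrix by heparan sulfate, trimmed by proteases and cleared by atypical receptors that do not signal through G proteins. In muscle, resident macrophages, endothelial cells and fibroblast-like stromal cells are known sources. The CC ligands mostly attract monocytes, macrophages and eosinophils, and Cxcl1 attracts neutrophils. Cxcl12 retains stem and immune cells through Cxcr4, and Cx3cl1 is a membrane-anchored ligand of Cx3cr1 on monocytes and macrophages.

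Of the members, 6 lie on chromosome 11. In build mm9, to which the probe positions refer, the probes of Ccl2 (start 81850650), Ccl7 (81860656), Ccl11 (81876369) and Ccl8 (81930108) follow each other on the plus strand. Those of Ccl9 (83388223) and Ccl6 (83401997) lie farther along on the minus strand, with their starts 13774 bases apart. Each probe is 60 bases long and was designed on the gene's own mRNA, so it reports exonic sequence. A stretch of 30 bases of each probe is shown for the CC members because neighbouring genes of a family could share sequence. Capitals mark the longest run that the whole Ccl6 and Ccl9 probes share.
Ccl2 probe, bases 1 to 30: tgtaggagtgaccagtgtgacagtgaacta
Ccl7 probe, bases 1 to 30: ttctgagaactgttgatgaaatgtgttgat
Ccl8 probe, bases 1 to 30: accagaagtctcaaattctgcagccttgaa
Ccl11 probe, bases 1 to 30: cttctgcctttaaagtcctaccatgccaag
Ccl9 probe, bases 1 to 30: caactagGATGAAATaaattctgccttagc
Ccl6 probe, bases 31 to 60: cgggtaatatctagctgaGATGAAATcaat
The Ccl6 and Ccl9 probes share no run longer than 8 bases. A run of that length is not particular to the pair, since the Ccl7 probe shares 8 bases with each of them and the Ccl9 probe shares 9 with those of Ccl8 and Ccl11. Between Ccl6 and Ccl9, 23 of 60 positions are identical when they are set side by side from base 1 without gaps. No other pair of member probes had more. The shared run sits at different positions in the Ccl6 and Ccl9 probes, so this count does not line it up. The sequences differ, but their likeness in a shifted alignment was not tested. This matters below because their signals moved closely together.

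Promoter windows, from 250 bases before to 30 bases after the transcription start, were taken from RefSeq (GRCm38.p6) for 7 of the 10 members. The 3 shown belong to the pair that moved together and to the member with a match to a known NF-kB site. In the first pair, capitals mark the stretch that aligned between them. In Cxcl1, they mark its matches to the NF-kB consensus on both strands, which overlap.
Ccl6 promoter, chr11:83593058-83593337, minus strand: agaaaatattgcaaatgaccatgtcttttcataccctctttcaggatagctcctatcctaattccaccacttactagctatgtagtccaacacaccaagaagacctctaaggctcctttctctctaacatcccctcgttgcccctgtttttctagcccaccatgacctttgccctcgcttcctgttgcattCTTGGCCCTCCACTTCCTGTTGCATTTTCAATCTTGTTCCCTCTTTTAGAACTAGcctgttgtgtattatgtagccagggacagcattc
Ccl9 promoter, chr11:83578607-83578886, minus strand: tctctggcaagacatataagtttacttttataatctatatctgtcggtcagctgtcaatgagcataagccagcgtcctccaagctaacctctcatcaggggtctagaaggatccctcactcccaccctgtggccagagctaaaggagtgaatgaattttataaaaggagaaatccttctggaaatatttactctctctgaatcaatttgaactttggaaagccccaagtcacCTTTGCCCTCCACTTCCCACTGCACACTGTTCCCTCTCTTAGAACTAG
Cxcl1 promoter, chr5:90890995-90891274, plus strand: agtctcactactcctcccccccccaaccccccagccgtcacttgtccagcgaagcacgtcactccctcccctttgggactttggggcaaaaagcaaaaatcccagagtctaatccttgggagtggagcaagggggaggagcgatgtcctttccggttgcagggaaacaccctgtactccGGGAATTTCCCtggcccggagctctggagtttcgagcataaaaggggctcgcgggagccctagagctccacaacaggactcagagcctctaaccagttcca
The Ccl6 stretch from -59 to -5 aligned with the Ccl9 stretch from -18 to 30, with 42 of 55 aligned columns identical (76.4%). That alignment had a score of 25, and the next pair among the 7 windows had 14. The NF-kB consensus, searched on both strands, matched in Cxcl1 and Ccl9 and in 4.22% of 32851 windows of the same length. The plus-strand match in Cxcl1, GGGAATTTCC from -71 to -62, was present in 0.0852% of windows. TATAAA, also searched on both strands, was found in Ccl8, Ccl9 and Cx3cl1 and in 13.1% of windows. These matches are descriptions of letters and were not tested as sites of regulation.

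The comparison asks whether oral P. gingivalis was accompanied by a different level of these messages in soleus. The group mean was lower in the P. gingivalis group for 10 of 10 members, with a median log2 difference of -0.49. Over all genes the median was -0.01, and 52.3% had a lower mean. The differences ran from -1.94 for Ccl8 to -0.11 for Cxcl14, and 4 members (Ccl2, Ccl7, Ccl8 and Cxcl1) were lower by at least 0.5, as were 4.42% of all genes. None of the 10 passed the threshold of an adjusted p under 0.05 in limma, which 26 genes (0.117%) did. At an unadjusted p under 0.05 there were 3 members (Ccl8, Cxcl1 and Cxcl12), beside 19.7% of all genes in either direction and 9.68% in this direction. The groups did not overlap for 2 members, Ccl8 and Cxcl12, beside 13.4% of all genes in either direction and 6.1% in this direction. Without saline 3 the count was 5, with Cxcl1, Cxcl14 and Cx3cl1 added, beside 20.9% of all genes in either direction and 9.85% in this direction.

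One slide carried the 8 arrays and was scanned once. Its saline arrays and its P. gingivalis arrays filled opposite sides, and the group and the side of the slide cannot be told apart. Directions follow the sample records, and all of them would be turned if the column names of the authors' deposited table, which carry the groups the other way round, were right. Whether each sample was a different mouse is not given in the labels, and the p-values reflect the spread among the samples as deposited. Fewer cells of a type and less RNA per cell cannot be told apart in whole muscle. The 75th percentile of signal was 648 to 764, and it did not separate the groups. The number of probes well above background did, at 30210 to 34111 on the saline arrays and 34857 to 35400 on the P. gingivalis arrays. Its part in the differences of the dim members, Ccl7, Ccl8 and Cxcl1, was not tested. The number of arrays limits the precision.

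**Figure D1:**
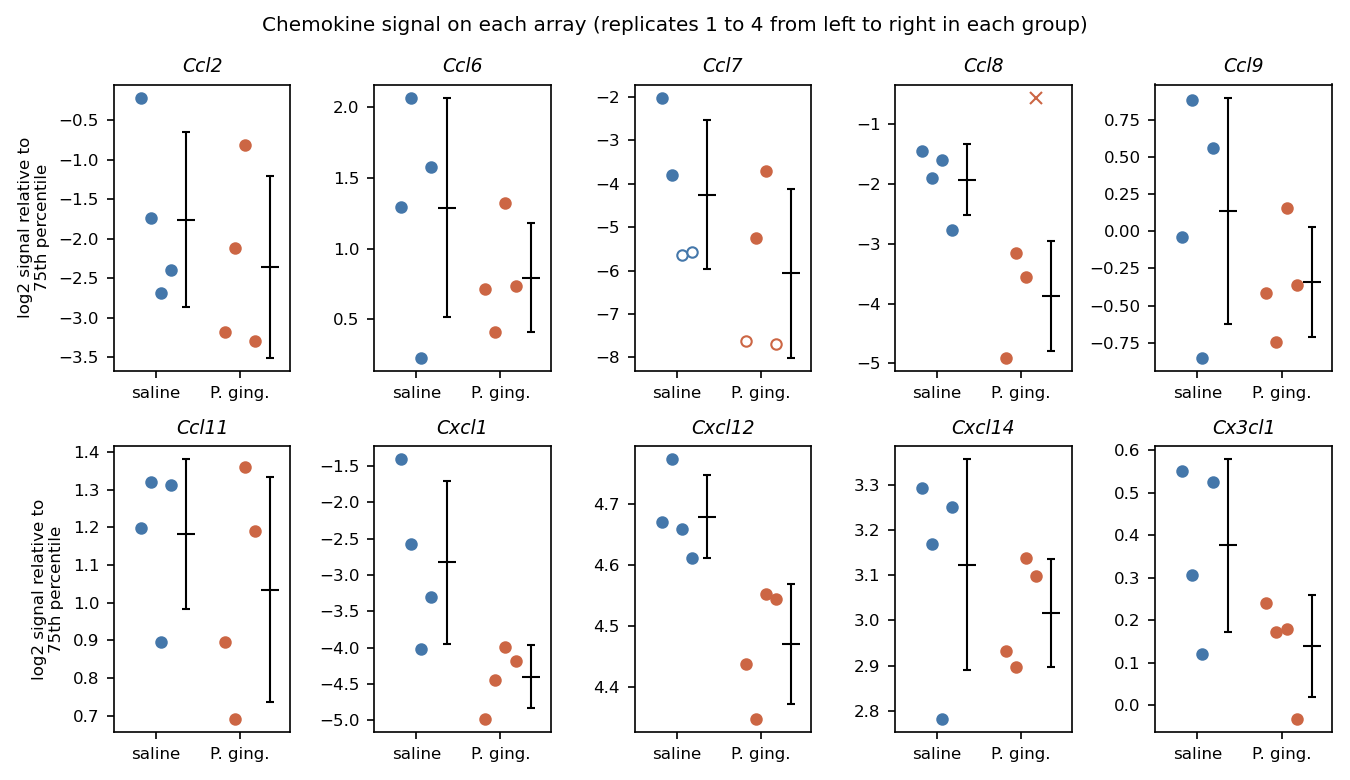
Log2 signal of each chemokine relative to the array's 75th percentile (vertical axes, each gene on its own scale) in the saline and P. gingivalis groups, 1 point per array with the mean and SD beside it. Open points were not well above background, and the cross is the Ccl8 spot with an outlier mark that was left out. The groups are separate for Cxcl12 and, without the crossed spot, for Ccl8.

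Ccl2, the main attractant of Ccr2-bearing monocytes, had log2 values relative to the array's 75th percentile of -0.21, -1.74, -2.69 and -2.40 in saline 1 to 4. In P. gingivalis 1 to 4 the values were -3.19, -2.12, -0.81 and -3.30. A value of 0 stands for a probe as bright as the one at the 75th percentile of its array. Saline 1 and P. gingivalis 3 stood above the other 6 arrays, and the groups overlapped. The Ccl2 difference was -0.60 ± 0.70 (SE, n = 4 and 4; adjusted p = 0.665 in limma). It was -0.08 without saline 1 and -1.11 without P. gingivalis 3, so those arrays set much of its size.

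Ccl7, a relative of Ccl2 that also acts on Ccr2, gave -2.02, -3.81, -5.63 and -5.57 in the saline arrays. The P. gingivalis arrays gave -7.63, -5.25, -3.70 and -7.69. It was well above background only on saline 1 and 2 and on P. gingivalis 2 and 3, so its low values sit at the limit of the assay. The widest range of any member, 5.67 on the log2 scale, belonged to Ccl7. Its difference was -1.81 ± 1.13 (SE, n = 4 and 4; adjusted p = 0.413 in limma), with a 95% interval from -4.43 to 0.81. The difference was -2.60 without P. gingivalis 3 and -0.51 with another background correction (normexp).

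Ccl2 and Ccl7 peaked on the same arrays. Among the 22271 other genes tested, Ccl2 had the pattern most like that of Ccl7, with a root mean square difference of 0.89 between their log2 deviations over the 8 arrays. In the other direction, Ccl7 was number 515 among the genes most like Ccl2, since Ccl7 varied more widely. After Ccl2 came Has1, which makes hyaluronan (0.92), and an intergenic locus probe on chromosome 6 (1.04).

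Ccl8, a monocyte attractant of the same gene cluster that in mice also acts on Ccr8, had values of -1.45, -1.89, -1.60 and -2.78 in saline 1 to 4. In P. gingivalis 1 to 3 the values were -4.91, -3.15 and -3.55. The 3 P. gingivalis arrays lay below the 4 saline arrays. The spot on P. gingivalis 4 carried an outlier mark of the scanner software and was left out. As scanned it was at -0.55, above all the other 7 arrays. The Ccl8 difference was -1.94 ± 0.49 (SE, n = 4 and 3; adjusted p = 0.114 in limma), or 3.84-fold lower in the P. gingivalis group. An exact permutation test over the 35 assignments gave a two-sided p of 0.0571, which is not the smallest they can give. With the marked spot kept, the difference was -1.11 (adjusted p = 0.493 in limma) and the groups overlapped. The authors' deposited table gave 0.82 in size, with an adjusted p of 0.314.

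By the same measure of likeness, over the 7 arrays with a Ccl8 value, its nearest genes were 5430401H09Rik (0.50), an Ensembl transcript with no gene name in the array annotation (0.55) and Cxcr2 (0.59). Cxcr2 encodes the receptor of Cxcl1, and its values are given with the receptors.

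Ccl11, or eotaxin, attracts eosinophils through Ccr3. It gave 1.20, 1.32, 0.90 and 1.31 in the saline arrays and 0.90, 0.69, 1.36 and 1.19 in the P. gingivalis arrays. The highest value of all 8 arrays belonged to P. gingivalis 3, and the groups overlapped. The Ccl11 difference was -0.15 ± 0.16 (SE, n = 4 and 4; adjusted p = 0.642 in limma), and it was -0.03 without P. gingivalis 2 and -0.26 with P. gingivalis 3 left out. Eosinophil and mast cell markers were mostly dim, with 4 of 9 (Prg2, Epx, Il5ra and Siglecf) too dim to test. The 5 tested are mast cell markers, so their median difference of -0.12 says nothing of eosinophils.

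Ccl6 and Ccl9 are rodent chemokines that act on Ccr1 and are made mainly by myeloid cells. Ccl6 had values of 1.29, 2.07, 0.23 and 1.57 in saline 1 to 4 and 0.72, 0.41, 1.32 and 0.74 in P. gingivalis 1 to 4. Ccl9 had -0.04, 0.88, -0.85 and 0.56 in the saline arrays and -0.42, -0.74, 0.15 and -0.36 in the P. gingivalis arrays. For both genes saline 2 was the highest array and saline 3 the lowest, so the full range lay within the saline group. The Ccl6 difference was -0.49 ± 0.38 (SE, n = 4 and 4; adjusted p = 0.50 in limma). For Ccl9 it was -0.48 ± 0.37 (SE, n = 4 and 4; adjusted p = 0.504). Leaving out saline 2 gave -0.24 and -0.23, and leaving out saline 3 gave -0.85 and -0.81.

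Over the 8 arrays the log2 ratio of Ccl6 to Ccl9 had an SD of 0.09, although each gene ranged over 1.84 and 1.73 on the log2 scale. Each was the nearest of 22271 genes to the other, with a root mean square difference of 0.09. The pair was the closest among the members, followed by Ccl11 with Cxcl14 (0.13) and Cxcl14 with Cx3cl1 (0.15). Those later pairs have narrow ranges, so a small difference between them says less. This likeness is a description of 8 arrays, in which the genes share RNA, labelling and scan.

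The macrophage and monocyte markers moved in nearly the same order as Ccl6 and Ccl9. Their median log2 deviation was highest on saline 2 (0.64) and saline 4 (0.33) and lowest on saline 3 (-0.66) and P. gingivalis 2 (-0.57), as for both chemokines. The low arrays were not particular to these markers. Stromal markers were lowest on P. gingivalis 2 (-0.43) and saline 3 (-0.28), and highest on saline 4 (0.25). The tested mast cell markers were lowest on saline 3 (-0.51) and P. gingivalis 2 (-0.40), and highest on saline 4 (0.66). Of 14 listed macrophage and monocyte markers 13 were tested, and 10 had a lower mean in the P. gingivalis group. Their median difference was -0.21, with 0 past the threshold. Their summed level, in units of each array's 75th percentile signal, was 122 to 153 in the saline arrays and 124 to 134 in the P. gingivalis arrays. Ly6c2 made up 52.7% of that sum and Itgam 27.9%, and both are among the 3 markers with a higher mean in the P. gingivalis group, so the sum says little of the other markers. The part of macrophages in the Ccl6 and Ccl9 differences was not tested.

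**Figure D2:**
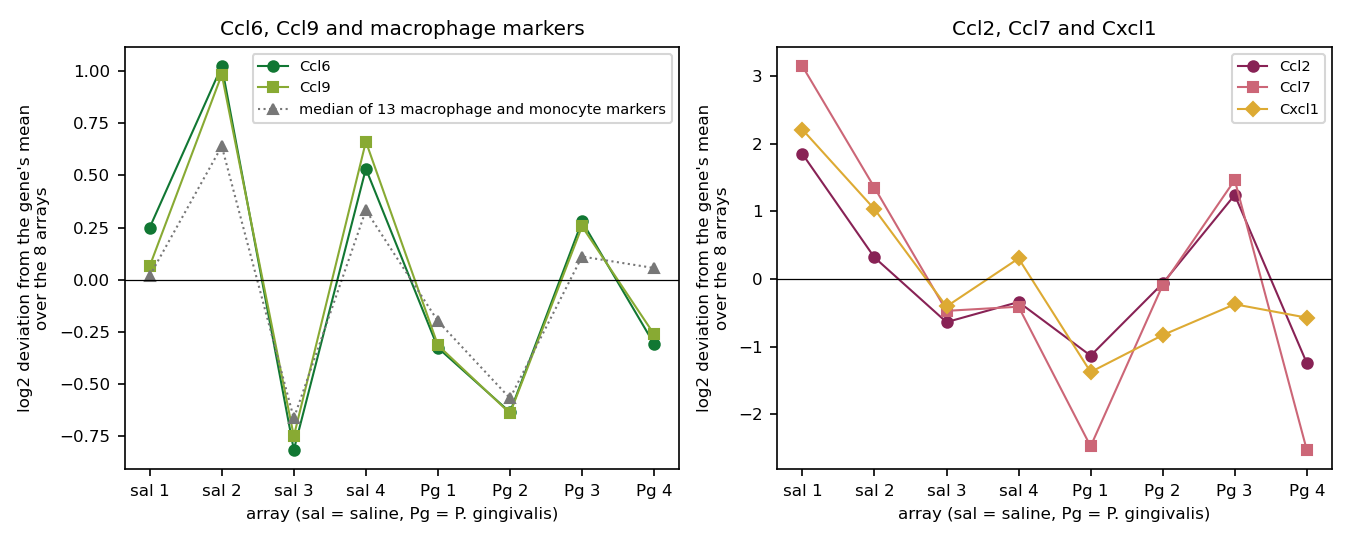
Log2 deviation of each gene from its own mean over the 8 arrays (vertical axes) on each array (horizontal axes, saline 1 to 4 and then P. gingivalis 1 to 4). At left Ccl6 and Ccl9 overlie each other, from about the same peak on saline 2 to the same low on saline 3, with the median of 13 macrophage and monocyte markers alongside. At right Ccl2 and Ccl7 share high values on saline 1 and P. gingivalis 3, while Cxcl1 is highest on saline 1 and saline 2 and below its mean on P. gingivalis 3.

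Cxcl1, the neutrophil attractant induced by inflammatory cytokines, had values of -1.41, -2.58, -4.02 and -3.31 in the saline arrays. In the P. gingivalis arrays it had -4.99, -4.44, -3.99 and -4.18. Saline 1 was the highest, and the groups overlapped only through saline 3, which lay just below P. gingivalis 3. The Cxcl1 difference was -1.57 ± 0.52 (SE, n = 4 and 4; adjusted p = 0.170 in limma), or 2.97-fold lower in the P. gingivalis group, with a two-sided exact permutation p of 0.0571. It was -1.97 without saline 3 and -0.84 with normexp. The spread was 1.12 (SD, n = 4) in the saline group and 0.43 (SD, n = 4) in the P. gingivalis group.

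The genes most like Cxcl1 over the 8 arrays were Has1 (root mean square difference 0.36), the antisense RNA gene Srrm4os (0.37) and another intergenic locus probe on chromosome 6 (0.37). Ccl2 was number 201 in that order. Neutrophil markers had a lower mean in the P. gingivalis group for 6 of the 7 tested, with a median difference of -0.23 and 0 past the threshold. The calprotectin genes S100a8 and S100a9, singled out after their values were seen, had the largest differences of that list, -2.21 (adjusted p = 0.165 in limma) and -2.10 (adjusted p = 0.203). S100a8 had values of -0.69, -1.13, -4.30 and -2.54 in the saline arrays and -4.64, -4.28, -3.995 and -4.58 in the P. gingivalis arrays. Saline 1 and 2 were the highest arrays for S100a8 and S100a9, as they were for Cxcl1. The summed level of the list was 72.7 to 85.8 in the saline arrays and 60.2 to 75.1 in the P. gingivalis arrays, but the probe of Csf3r alone made up 96.3% of it. Ngp and Retnlg, which are granule and secreted markers of neutrophils, were too dim to test. The part of neutrophils in the Cxcl1 difference was not tested.

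Cxcl12, the stromal ligand of Cxcr4, was measured by probes for variants of its mRNA with different ends. The variant 3 probe was bright and even, at 4.67, 4.77, 4.66 and 4.61 in the saline arrays and 4.44, 4.35, 4.55 and 4.55 in the P. gingivalis arrays. Every saline array lay above every P. gingivalis array. The difference was -0.21 ± 0.07 (SE, n = 4 and 4; adjusted p = 0.160 in limma), or 1.16-fold lower in the P. gingivalis group. Its two-sided exact permutation p of 0.0286 is the smallest that the 70 assignments of 4 against 4 can give. Its 95% interval was the narrowest of the members, from -0.36 to -0.05. The 4 saline arrays had an SD of 0.07.

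The variant 1 probe of Cxcl12 gave -0.13, -0.18, -0.62 and -0.23 in the saline arrays and -0.68, -0.89, -0.44 and -0.26 in the P. gingivalis arrays. Its difference, -0.28, had the same direction, but the groups overlapped. Stromal markers, from cells known to make Cxcl12, had a median difference of 0.00 over 10 tested genes, of which 5 were lower and 5 higher. Endothelial markers, from the other known source, had -0.21 over 10 genes, with 7 lower and 0 past the threshold. The groups did not overlap for 3 of these 10 (Egfl7, Kdr and Ptprb, all lower). Over all genes the share was 13.4% in either direction and 6.1% in this direction. The summed level of the 10 markers was 69.5 to 74.1 in the saline arrays and 55.1 to 63.4 in the P. gingivalis arrays. The bright probes of Egfl7 (-0.40) and Ptprb (-0.29) made up 42.6% and 21.1% of that sum. Kdr (-0.55), Cldn5 (-0.40), Vwf (-0.33), Cdh5 (-0.13) and Emcn (-0.05) were also lower. Pecam1 (0.18), Tie1 (0.18) and Tek (0.06) differed in the other direction. The endothelial genes were named after their values were seen. The part of endothelial cells in the Cxcl12 difference was not tested.

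Cxcl14, a chemokine made by stromal and epithelial cells whose receptor is debated, had values of 3.29, 3.17, 2.78 and 3.25 in the saline arrays. The P. gingivalis arrays had 2.93, 2.90, 3.14 and 3.10, inside the saline range. Its difference was -0.11 ± 0.12 (SE, n = 4 and 4; adjusted p = 0.657 in limma), and with 1 array left out it ranged from -0.22 without saline 3 to -0.05 without saline 1. A probe for a predicted variant was dim, well above background on 2 saline and 3 P. gingivalis arrays, and its means differed by -0.44.

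Cx3cl1, or fractalkine, is displayed by endothelial cells and neurons and can be shed by proteases. It gave 0.55, 0.31, 0.12 and 0.53 in the saline arrays and 0.24, 0.17, 0.18 and -0.03 in the P. gingivalis arrays. P. gingivalis 4 was the lowest array, and saline 3 lay among the P. gingivalis values. The difference was -0.24 ± 0.11 (SE, n = 4 and 4; adjusted p = 0.289 in limma), with a two-sided exact permutation p of 0.114. A dimmer probe, designed on another transcript of the gene, gave a difference of 0.07 in the opposite direction. The count of 10 lower members therefore holds with the brightest probe of each gene and was 9 with the dimmest.

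**Figure D3:**
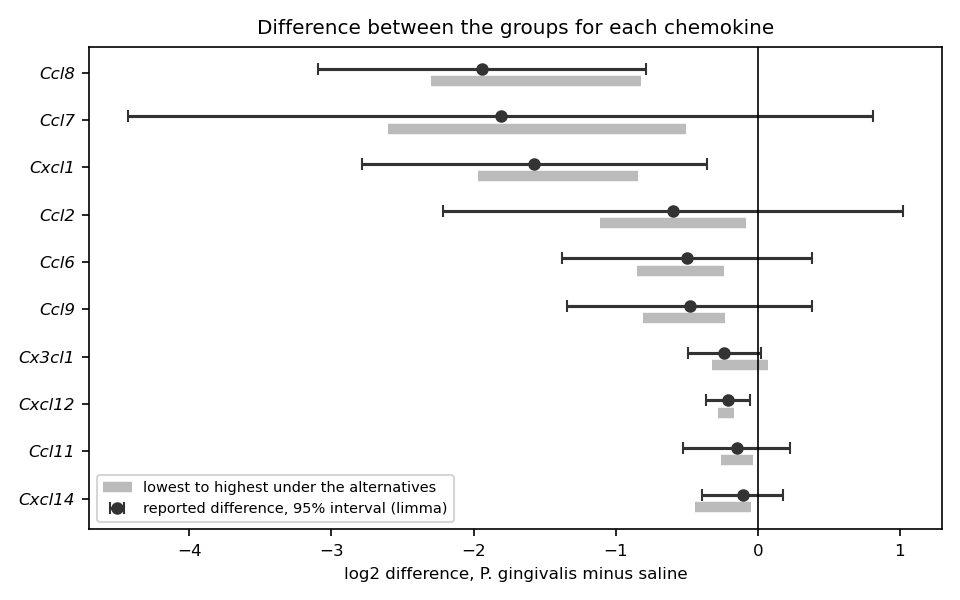
Log2 difference of each chemokine (horizontal axis, P. gingivalis minus saline; negative means lower in P. gingivalis), with points for the limma estimate and lines for its 95% interval. Grey bars run from the lowest to the highest value under the other processing choices, including each array left out. The intervals of Ccl8, Cxcl1 and Cxcl12 lie below 0, and the grey bar of Cx3cl1 alone reaches above 0.

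The 10 members did not vary independently across arrays. Saline 1 was the highest array for 6 members and saline 2 for 3, and on both of these 10 of 10 members were above their mean over all arrays. On P. gingivalis 1 and 2 none were. Saline 3 was above the mean for 2 members and P. gingivalis 3 for 6 members, so arrays of each group lay with the other. On saline 4 it was 7 members, and on P. gingivalis 4 it was 2 of the 9 measured. Markers of fast fibres, which the muscles next to the soleus are rich in, had their lowest median deviations on saline 1 (-1.09) and P. gingivalis 3 (-0.78), the arrays where Ccl2 and Ccl7 were highest. The markers listed for slow soleus fibres had a higher mean in the P. gingivalis group for 9 of 9. Their median difference was 0.19, with 0 past the threshold. The groups did not overlap for 6 of these 9 (Mb, Myl3, Tnnc1, Acta1, Myl2 and Tnnt1), beside 13.4% of all genes in either direction. They overlapped for Myh7 (0.09), Tnni1 (0.10) and Atp2a2 (0.09). The summed level of the 9 markers was 3815 to 4066 in the saline arrays and 4301 to 4729 in the P. gingivalis arrays. The fast fibre markers also had a higher mean in the P. gingivalis group for 6 of 7, with a median difference of 0.14. The groups did not overlap for 1 of these 7. The part of dissection or fibre content in the chemokine differences was not tested. Without saline 1 and P. gingivalis 3, 10 of 10 members had a lower mean, as had 50.5% of all genes, and 0 passed the threshold. The groups of 3 members then did not overlap, beside 21.9% of all genes in either direction and 10.2% in this direction.

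Among the receptors, 9 of 18 were bright enough to test and 0 passed the threshold, with a median difference of -0.28. Ccr1, the receptor of Ccl6 and Ccl9, was well above background on 1 of 8 arrays, and Ccr3, the receptor of Ccl11, on 0. Cxcr2, the receptor of Cxcl1 on neutrophils, had values of -5.08, -4.45, -4.15 and -4.94 in the saline arrays and -6.75, -5.05, -6.41 and -6.19 in the P. gingivalis arrays. Only P. gingivalis 2 lay within the saline range. It was well above background on 3 saline arrays and 1 P. gingivalis array, and its difference was -1.45 ± 0.37 (SE, n = 4 and 4; adjusted p = 0.111 in limma). With no filter on dim probes, its adjusted p in limma was 0.0484. In that setting 5160 of 37008 genes passed the threshold, of which 511 were higher.

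Ccr2, the receptor of Ccl2 and Ccl7 on monocytes, was measured on all 8 arrays. Its values were -3.38, -1.71, -4.32 and -2.10 in the saline arrays and -3.82, -4.96, -3.46 and -3.36 in the P. gingivalis arrays, and the groups overlapped. As with Ccl6 and Ccl9, saline 2 and saline 4 were the highest arrays. The Ccr2 difference was -1.03 ± 0.61 (SE, n = 4 and 4; adjusted p = 0.393 in limma). Cx3cr1, the receptor of Cx3cl1, had a difference of -0.83 (adjusted p = 0.307), Ccr7, which guides cells to lymph nodes, 0.35 (0.309) and Cxcr4, the receptor of Cxcl12, 0.29 (0.464).

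The atypical receptors, which bind chemokines and remove or carry them, were all bright enough to test, and 0 of 5 passed the threshold. Their differences were -0.32 for Ackr1 of venules, -0.28 for Ackr2, which clears inflammatory CC ligands, -0.16 for Ackr3, which clears Cxcl12, and 0.08 for Ackr4. Of 28 further chemokine ligands, 16 were tested and 0 passed, with 12 lower, 4 higher and a median of -0.14. Ccl19, a lymphoid ligand of Ccr7, had -1.03 (adjusted p = 0.280), Ccl25 had -0.20 and Ccl27a had 0.10. The neutrophil attractants Cxcl2, Cxcl3 and Cxcl5 and the macrophage products Ccl3 and Ccl4 were among the 12 that were too dim to test.

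The proteases that trim or shed chemokines gave 0 of 6 past the threshold and a median of -0.08. Mmp8, a neutrophil collagenase, was at -0.44, Dpp4 at 0.28 and Adam17, which can shed Cx3cl1, at -0.08. The dim Mmp8 probe was well above background on 3 saline and 3 P. gingivalis arrays. The carriers and enzymes of heparan sulfate gave 0 of 12 and a median of -0.01, with 6 lower and 6 higher. The heparan sulfate carrier Sdc1 (syndecan 1) had a difference of -0.36 (adjusted p = 0.0789 in limma). Its groups did not overlap, as was so for 1 of these 12 and for 13.4% of all genes in either direction. The Sdc1 probe was dim, with means of -3.65 in the saline group and -4.01 in the P. gingivalis group. With no filter on dim probes, where 5160 of 37008 genes passed, the adjusted p of Sdc1 in limma was 0.0276. Ext2, a polymerase of heparan sulfate, had 0.60 (adjusted p = 0.235 in limma), and Hs2st1, one of its sulfotransferases, -0.19. The dim Ext2 probe was well above background on 3 saline and 4 P. gingivalis arrays, and it was highest on P. gingivalis 2 (-3.01). Cytokines, their receptors and transcription factors gave 0 of 19 past the threshold and a median of -0.05, with 10 lower and 9 higher. The groups did not overlap for 4 of these 19, beside 13.4% of all genes in either direction.

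Rela, the NF-kB subunit p65, had values of 3.41, 3.31, 3.18 and 3.29 in the saline arrays and 3.08, 3.06, 3.05 and 3.07 in the P. gingivalis arrays. Every P. gingivalis array lay below every saline array, as was so for 6.1% of all genes. The difference was -0.23 ± 0.06 (SE, n = 4 and 4; adjusted p = 0.111 in limma), and it was 0.01 for the dimmest of its kept probes. Il13ra1, a receptor subunit for the cytokines that can induce Ccl11, had -0.49 (adjusted p = 0.115 in limma). Nfkb1, another NF-kB subunit gene, had 0.11 (adjusted p = 0.330 in limma). The receptor genes Tnfrsf1b (0.15) and Ifngr2 (0.09) were higher on every P. gingivalis array than on any saline array. Nfkb1, Tnfrsf1b and Ifngr2 were named after their values were seen. Il1a, Il1b, Il6, Ifng and Il4 were too dim to test.

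**Figure D4:**
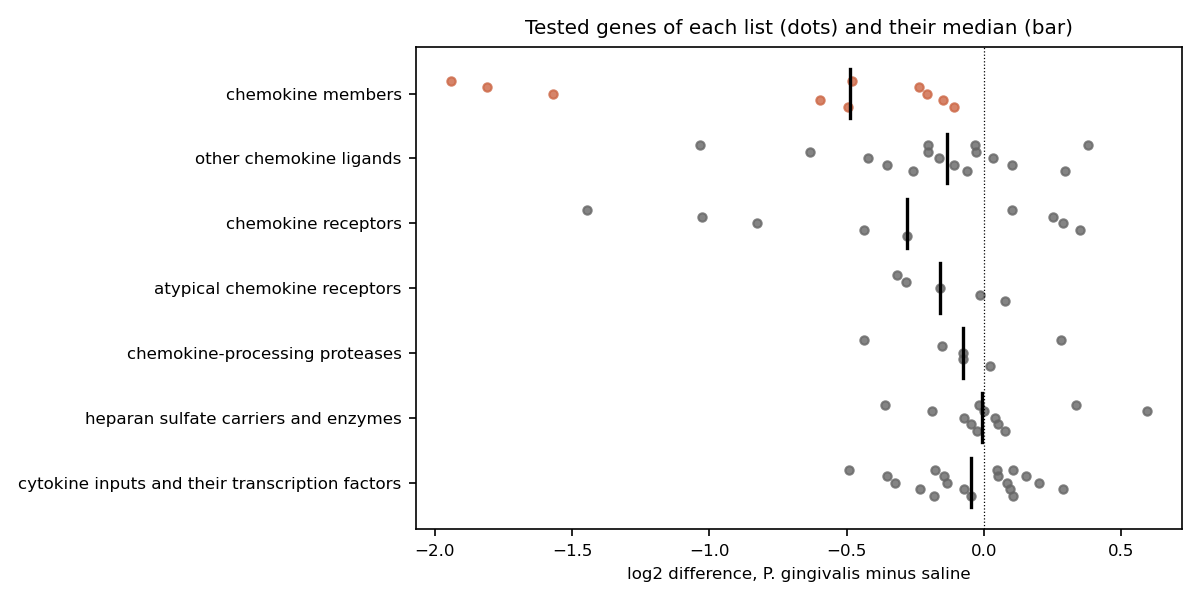
Log2 difference (horizontal axis, P. gingivalis minus saline) of each tested gene in 7 lists (vertical axis), 1 dot per gene with the list's median as a bar. The chemokine members lie to the left of 0 with a median of -0.49, and the heparan sulfate list is centred at -0.01. The lists were chosen with earlier results of these data known, and no dot is past the adjusted threshold.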

How the data were processed

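Muscle RNA from 8 samples was measured on single-colour arrays. Per the file headers, the authors' scanner files came from Agilent Feature Extraction 11.0.1.1 (the submitters' processing notes list 11.1), with background-subtracted intensity per spot and positions in mm9. Here the log2 of that deposited intensity was taken and each array's 75th percentile subtracted. Control spots and spots with outlier marks were left out (466 probes on at least 1 array). Of 56605 probes, 33749 passed a filter that asked for a signal well above background on 4 arrays or more. The brightest passing probe, by its mean, stood for a gene. Names came from RefSeq by accession (32994 probes) or symbol (10224 current, 520 older), and 12867 probes kept the file's name.

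The comparison used lmFit and eBayes of limma 3.58.1 (R 4.3.3), two-sided, with Benjamini-Hochberg adjustment over 22272 genes. Tested on simulated data of 22202 genes for the same comparison, the fit recovered 48% of log2 changes of 0.5 and 86% of 1. It recovered 92% of 2 and 94% of 3, and it made 7 false calls. The changed genes were drawn at random with their own spread, so these rates are not those of the members. The simulated noise was drawn separately for each gene and array, so effects that genes of an array share were left out. Genes with a left-out value, Ccl8 among them, were not simulated. Exact permutation tests were run for single members. The members and lists were chosen with earlier results of these data known. Named genes are the members, the 3 genes of each pathway list with the smallest p, chosen receptors, and the 3 genes most like the 3 most variable members, and 1 gene so named is not reported here. Members and genes of a list were read from the fit over all genes, and no test was run on a list.

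The authors' deposited table holds log2 values, p-values and score columns per the deposited column names, and its scale is log2 with a processing not given in the sources used here. Over 28135 rows, each of its 8 columns was most like the same-numbered array of the other group (correlation of deviations 0.861 to 0.898), so it was used only as an alternative. Its score columns were not used. Same-numbered samples deviated together weakly or not at all (correlations 0.06, -0.06, -0.04 and 0.23 for numbers 1 to 4), so replicate numbers were not taken as pairs. Other choices tried were the background correction, the scaling, the dim-probe filter, the probe rule, outlier marks, the variance model, array weights, the replicate block and each array left out.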

Additional observations from a re-analysis of the deposited data

How the results depend on the processing

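In the simulated data 48% of log2 changes of 0.5 were called. Those changes were given to genes drawn at random, each with its own spread, so the rate need not hold for the members. The simulated noise was independent between genes, unlike that of genes that move together over the arrays. Among the members, the SE of the difference ran from 0.07 for Cxcl12 to 1.13 for Ccl7. The differences of 6 members (Ccl6, Ccl9, Ccl11, Cxcl12, Cxcl14 and Cx3cl1) were smaller than 0.5. The count of members past the threshold was 0 under every alternative run. The member values kept their direction and side of the threshold in 207 of 208 cases, with Cx3cl1 at 0.072 for the dimmest probe as the exception. The lowest adjusted p any member reached in limma was 0.0526, for Ccl8 with no filter on dim probes. Normexp lowered the size of the dim members, to -0.51 for Ccl7, -0.84 for Cxcl1 and -1.03 for Ccl8. Members with groups that did not overlap numbered 1 where the dim-probe filter asked for all arrays (of 8 members), with the mean of all kept probes, with the dimmest probe, with outlier-marked spots kept and in the authors' deposited table, against 2 as reported and 3 with normexp. The share of all genes without overlap was 12.4% to 14.7% in these settings. Leaving out 1 array gave 2 to 5 members, beside 16.8% to 20.9% of all genes.

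The number of genes past the threshold over the whole array, 26 as reported (8 higher), was 455 with normexp (271 higher), 197 with quantile normalization (138 higher), 91 with median centring (58 higher), 5160 with no filter on dim probes (511 higher, with the median of all genes at -0.10), 261 where the filter asked for all arrays (145 higher), 9 with the mean of probes (2 higher), 10 with the dimmest probe (5 higher), 559 with a trended and robust variance (342 higher), 192 with array weights (105 higher) and 362 in the authors' deposited table with groups by matching array (264 higher). It was 2 to 7 with 1 array left out and 0 without both saline 1 and P. gingivalis 3 (limma, with 3083 genes at an unadjusted p under 0.05). In the fit with a replicate block, limma called 0 genes, with 4438 at an unadjusted p under 0.05. Saline samples were most like the P. gingivalis sample of their own number for numbers 1 and 4, a hint from the data and not from the design. Why these counts move was not tested.

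Among the other named genes, whose alternatives were chosen after the data had been seen, signs turned with the dimmest probe for Ackr2 (0.27), Dpp4 (-0.028), Adam17 (0.29), Rela (0.014) and Ccl25 (0.28), with the mean of probes for Adam17 (0.034), and in the authors' deposited table for Adam17 (0.13) and Hs2st1 (0.046). With 1 array left out, Ackr4 lay between -0.073 (P. gingivalis 1 left out) and 0.31 (saline 2 left out). It was at -0.049 without saline 1, -0.061 without saline 3 and -0.051 without both saline 1 and P. gingivalis 3. The cause was not tested.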
